A study of Mus musculus with 10 samples.

Results

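Stellate cells and pericytes are the contractile and matrix-forming cells that lie outside the endothelium of liver sinusoids and other small vessels, and 31 genes that mark them or portal fibroblasts were followed here through hepatocyte cultures. The genes were picked by name from a table of 56748 genes, with collagens and genes of retinoid handling left out, and 21 of the 31 had enough reads to be tested. The quiescent stellate cell stores vitamin A. When activated it turns into a myofibroblast that makes smooth muscle actin and matrix under the control of platelet-derived growth factor (PDGF) and transforming growth factor beta. Such cells are a known companion of hepatocytes in collagenase preparations of liver.

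The libraries are poly-A RNA sequencing of primary hepatocytes of wild-type mice kept overnight in medium conditioned by cultured adipocytes. In Mttp_flox_CM the adipocytes came from Mttpf/f mice and in Mttp_KO_CM from A-Mttp-/- mice, which lack the microsomal triglyceride transfer protein in fat, and each group holds 5 libraries. In both groups the fat donors were males, 3 by the labels, fed an obesogenic diet for 6 months, and their inguinal stromal vascular cells were differentiated with IBMX, insulin, dexamethasone, indomethacin and rosiglitazone, then starved overnight to condition the medium. The sources used here give neither the promoter that drives the fat deletion, nor the age of the mice, nor the number of hepatocyte donors. Whether the libraries within a group are separate cultures or animals is unstated, so each p-value weighs a difference against spread that could be purely technical. The hepatocytes were not edited, so their Mttp level does not test the label of a medium.

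Libraries held between 14199798 and 17178131 counts. Levels are in CPM, counts scaled to a common library size with TMM (trimmed mean of M values) factors, as mean ± SD over 5 libraries. Lists of values run through replicates 1 to 4 and end with the library of each group whose column number no label gives, called the unnumbered library. A log2 change is Mttp_KO_CM over Mttp_flox_CM with its standard error (SE), from edgeR's quasi-likelihood test, and a gene fell or rose if its p, adjusted by Benjamini-Hochberg over the 14183 genes tested, was under 0.05. Hepatocyte markers were present as labelled, with albumin (Alb) at 29140 CPM in Mttp_flox_CM, and the 31 genes together made up 903 ± 16.3 CPM there.

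The promoters of Acta2 and Myl9 are shown because these contractile genes had the lowest levels in Mttp_KO_CM relative to Mttp_flox_CM among the cytoskeletal genes and because, of the 24 genes with a promoter in the RefSeq table, these held the CArG box or a near match to it. Serum response factor binds this element in smooth muscle genes. The box is CC, a core of A and T bases and GG, and it reads as a box on both strands. Each sequence is the 250 bases before the RefSeq start (GRCm38.p6), 5′ to 3′ on the strand of the gene, with boxes and near matches in capitals.
Acta2 (minus strand, chr19:34255374-34255623): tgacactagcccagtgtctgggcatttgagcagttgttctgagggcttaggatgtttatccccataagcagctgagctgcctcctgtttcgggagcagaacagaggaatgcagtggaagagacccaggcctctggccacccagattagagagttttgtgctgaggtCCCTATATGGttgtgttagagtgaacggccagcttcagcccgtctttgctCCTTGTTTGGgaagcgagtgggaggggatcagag
Myl9 (plus strand, chr2:156775214-156775463): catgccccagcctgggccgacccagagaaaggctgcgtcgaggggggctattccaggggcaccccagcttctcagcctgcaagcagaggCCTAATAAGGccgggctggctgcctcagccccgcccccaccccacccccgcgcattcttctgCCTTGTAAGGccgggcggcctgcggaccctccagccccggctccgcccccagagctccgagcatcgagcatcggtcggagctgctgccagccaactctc
The first box of Myl9, CCTAATAAGG at -161, was a full match, and the second, CCTTGTAAGG at -99, had 1 base of its core that is neither A nor T. Acta2 held no full match, and its near matches, CCCTATATGG at -84 and CCTTGTTTGG at -34, each had 1 such base. Over the full window of the table, which adds 50 bases after the start, a full match was held by 1.63% of 32851 promoters, and a box with at most 1 such base by 9.98%. Of 28 promoters found for 24 of the genes, 1 (3.57%) held a full match and 2 (7.14%) a box with at most 1 such base. Tagln was not among the genes with a promoter found, and any link between the box and these levels was not tested.

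Genes of stellate cells and pericytes were lower in cultures given knockout medium. Of the 21 tested, 17 fell and 0 rose, where 18.1% of all genes tested fell and 18.2% rose. Of all genes called, 50.1% were higher, or 38.1% when libraries were scaled by their totals alone, under which 19 of the 21 fell. More of all genes tested also fell under that scaling, so the 18.1% is not the share to set beside these 19. All 21 log2 changes were below 0, from -1.92 for Acta2 to -0.16 for Reln, with a median of -0.63 beside 0.00 over all genes tested. In 13 of the 21 every Mttp_KO_CM library lay below every Mttp_flox_CM library, which held for 12.7% of all genes tested. A fall of 2-fold or more was seen in 5, Acta2, Abcc9, Lum, Prelp and Pdgfrb, against 1.42% of all genes. Lum is in the 17, the 13 and the 5, though it passed the filter through its Mttp_flox_CM libraries. In a bulk culture, fewer cells of a type and less RNA per cell cannot be told apart.

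Of the 21, 18 reached the filter's level of 0.661 CPM in all 10 libraries, and 14 of these 18 fell. The matching share over all genes at that level was not taken. Lum passed the filter through its Mttp_flox_CM libraries, with 1 Mttp_KO_CM library at that level, so its being tested at all was tied to its fall. Cygb and Fbln5 also missed that level in some libraries. With no filter 19 of the 31 fell and 0 rose. The summed level of the 31 went from 903 ± 16.3 to 619 ± 23.1 CPM, with libraries between 889 and 929 and between 593 and 656 CPM. Sparc, Ecm1, Vim and Igfbp3, which other liver cells express as well, made up 76.4 ± 0.812% of that sum in Mttp_flox_CM and 80.2 ± 0.449% in Mttp_KO_CM. The other 27 genes went from 213 ± 8.07 to 123 ± 4.74 CPM, to 0.575 of their level in Mttp_flox_CM, where these 4 went to 0.719 of theirs.

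**Figure D1:**
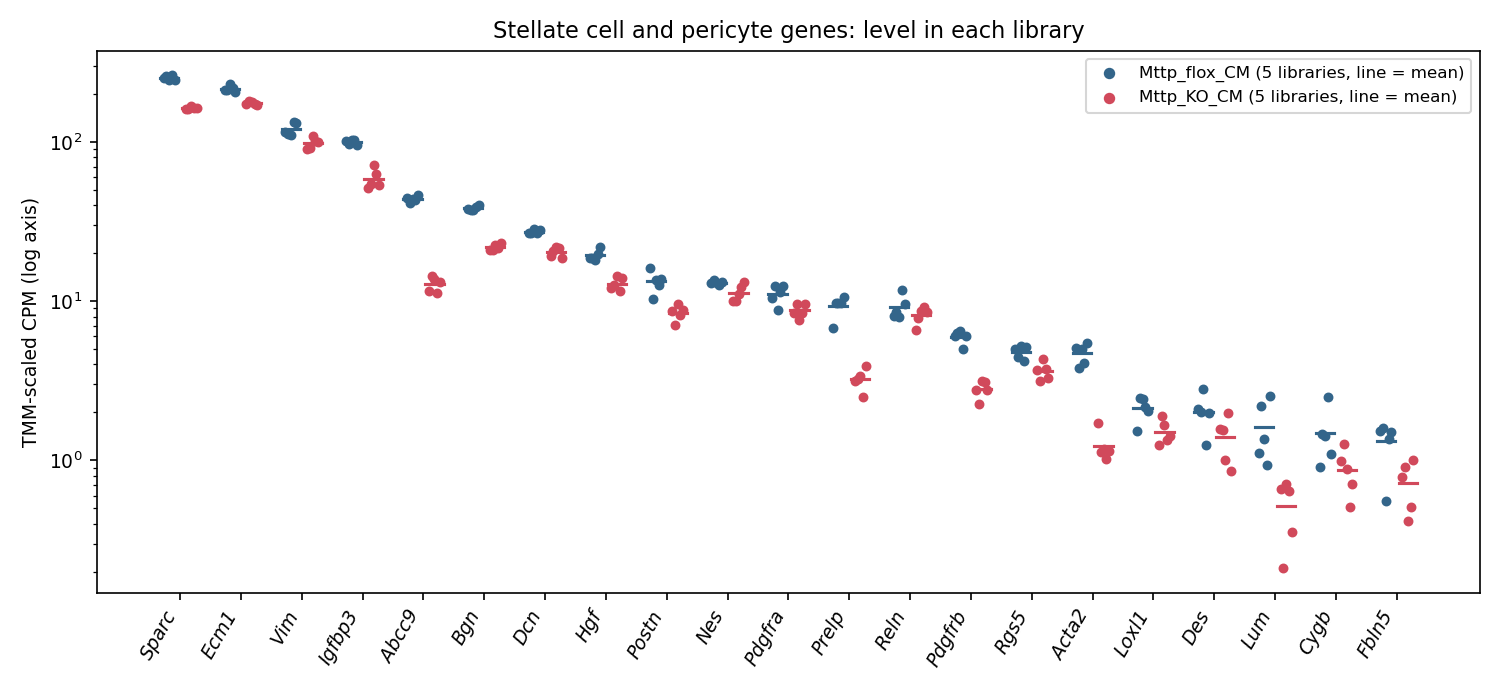
TMM-scaled CPM (vertical log axis) of the 21 genes tested, in each of 5 Mttp_flox_CM (blue) and 5 Mttp_KO_CM (red) libraries, with a line at each group mean and genes ordered by their Mttp_flox_CM level. The libraries of the 2 groups are far apart for Abcc9, Prelp, Acta2 and Bgn, and mix for Reln, Nes, Des and Loxl1.

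The cytoskeletal genes split, with the actin of contractile cells far lower and smaller changes in the filament genes tested, Vim, Nes and Des. Acta2, which encodes smooth muscle alpha-actin and is the usual sign of an activated stellate cell (ENSMUSG00000035783, chromosome 19 from 34218490 to 34232990, minus strand, GRCm39), had 73, 57, 81, 66 and 80 counts in Mttp_flox_CM and 26, 16, 20, 16 and 16 in Mttp_KO_CM. No Mttp_KO_CM library came near the lowest Mttp_flox_CM library. Its level went from 4.70 ± 0.702 to 1.24 ± 0.271 CPM, and it fell by 1.92 in log2 units (SE 0.18, edgeR adjusted p = 6.9e-09). Vim, the vimentin gene of mesenchymal, endothelial and blood cells, stood at 116, 113, 110, 133 and 132 CPM in Mttp_flox_CM and at 91.0, 92.3, 109, 101 and 101 CPM in Mttp_KO_CM. Its groups came close without overlapping, and it fell by 0.29 (SE 0.053, edgeR adjusted p = 1.3e-04). Nes, the nestin gene of pericytes and activated stellate cells, was at 13.0, 13.5, 13.0, 12.7 and 13.2 CPM against 9.99, 9.96, 11.1, 12.2 and 13.2 CPM, a log2 change of -0.21 (SE 0.087, edgeR adjusted p = 0.063). The unnumbered Mttp_KO_CM library lay inside the range of Mttp_flox_CM for Nes, and without it the adjusted p was 0.019, and without Mttp_KO_CM replicate 4 it was 0.047. Des, the desmin gene long used to stain rodent stellate cells, ranged from 1.24 to 2.79 and from 0.856 to 1.98 CPM (log2 change of -0.54 with SE 0.25, edgeR adjusted p = 0.098). Its groups overlapped, and it passed without Mttp_flox_CM replicate 4 (adjusted p = 0.035) or without Mttp_KO_CM replicate 4 (0.044).

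The remaining 3 cytoskeletal genes were too low to be tested, and their counts are given with a 95% interval (exact binomial) that covers counting error only. Myl9, a regulatory light chain of smooth muscle myosin (ENSMUSG00000067818, chromosome 2 from 156617340 to 156623578, plus strand, GRCm39), had 11, 6, 9, 13 and 11 counts in Mttp_flox_CM and 2, 1, 1, 2 and 1 in Mttp_KO_CM. These libraries do not overlap, and the scaled ratio was 0.140 (0.0536 to 0.311). Tested with no filter, Myl9 had an adjusted p of 5.4e-05 by edgeR. Tagln, the actin-binding transgelin of the same cells, had 25 counts in all against 22, a ratio of 0.881 (0.474 to 1.63). Tagln overlaps Pcsk7 on the opposite strand, which had 6767 counts, so with the strand setting not given its few reads may not be its own. Gfap, a filament gene of astrocytes and quiescent stellate cells, had 5 counts against 4, the latter all in Mttp_KO_CM replicate 4. How reads that match several genes were treated is not given either, so Acta2 and Myl9, which have close relatives among actins and myosin light chains, are uncertain to that extent. The closest relative of Acta2 on the lists, the enteric actin gene Actg2, had 3 counts in all in Mttp_flox_CM and 0 in Mttp_KO_CM.

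**Figure D2:**
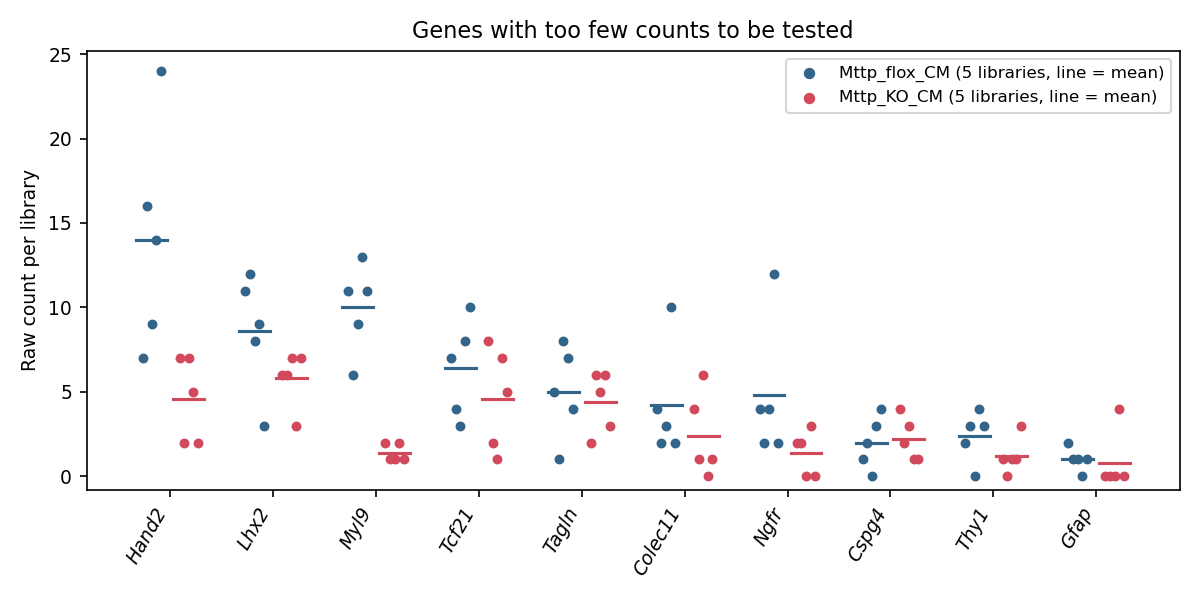
Raw counts (vertical axis) in each library of the 10 genes too low to be tested, with Mttp_flox_CM in blue, Mttp_KO_CM in red and a line at each group mean. Myl9 runs from 6 to 13 counts in Mttp_flox_CM and from 1 to 2 in Mttp_KO_CM, while Tagln, Cspg4 and Tcf21 overlap widely.

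Among surface receptors the 2 PDGF receptors fell to unequal degrees. Pdgfrb, the beta receptor by which PDGF drives stellate cell and pericyte growth, had 87, 94, 105, 81 and 88 counts in Mttp_flox_CM and 42, 32, 53, 49 and 39 in Mttp_KO_CM. The groups were clearly apart, at 5.98 ± 0.569 and 2.81 ± 0.363 CPM, and Pdgfrb fell by 1.08 (SE 0.14, edgeR adjusted p = 8.5e-07). Pdgfra, the alpha receptor of fibroblasts and stellate cells, was at 10.4, 12.5, 8.81, 11.5 and 12.5 CPM against 8.47, 9.54, 7.63, 8.47 and 9.56 CPM. Mttp_flox_CM replicate 3 lay among the Mttp_KO_CM libraries, and Pdgfra fell by 0.35 (SE 0.11, edgeR adjusted p = 0.010). Per length, in the deposited FPKM values, both receptors had the same level in Mttp_flox_CM, 1.10 ± 0.156 for Pdgfra and 1.09 ± 0.102 for Pdgfrb, and in Mttp_KO_CM 0.867 ± 0.0813 and 0.510 ± 0.0659. Ngfr, the p75 neurotrophin receptor of stellate cells, had 4, 2, 4, 12 and 2 counts against 2, 2, 0, 3 and 0, a ratio of 0.292 (0.106 to 0.699). Its adjusted p was 0.10 with no filter in edgeR. Thy1, an antigen of portal fibroblasts, and Cspg4, the NG2 proteoglycan of pericytes, had at most 4 counts in any library.

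All 4 PDGF ligand genes changed. Pdgfb, the ligand that endothelial cells supply to pericytes, fell from 23.4 to 11.9 CPM (log2 -0.98, SE 0.079). Pdgfd fell by 1.00 (SE 0.25) and Pdgfa by 0.25 (SE 0.054). Pdgfc, a ligand of the alpha receptor, rose by 0.37 (SE 0.12, edgeR adjusted p = 0.016), a call lost without Mttp_flox_CM replicate 2, which left 0 of the 4 higher. The median over the 4 was -0.62.

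Secreted matrix genes made up the largest group, and 8 of the 10 fell. Sparc, a collagen-binding glycoprotein also made by endothelial cells (ENSMUSG00000018593, chromosome 11 from 55285326 to 55314009, minus strand, GRCm39), was at 254, 260, 246, 262 and 246 CPM in Mttp_flox_CM and at 160, 162, 168, 163 and 163 CPM in Mttp_KO_CM. The libraries of each group were tightly bunched and wide apart from the other group, and Sparc fell by 0.63 (SE 0.029, edgeR adjusted p = 5.6e-15). Ecm1, a secreted glycoprotein that stellate cells and hepatocytes express, was at 212, 213, 231, 217 and 206 CPM against 174, 180, 179, 174 and 170 CPM. It did not overlap either, but the step was smaller, a fall by 0.30 (SE 0.032, edgeR adjusted p = 5.1e-08). Per length these were the most abundant of the 31, with 85.1 ± 3.71 FPKM for Ecm1 and 66.5 ± 2.03 for Sparc in Mttp_flox_CM, ahead of Igfbp3 at 31.8 ± 1.02 and Vim at 25.3 ± 2.34, and no other gene of the 31 was above Bgn at 6.26 ± 0.208.

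The small leucine-rich proteoglycans, which bind collagen fibrils and growth factors, fell by unequal amounts. Bgn (biglycan) was at 38.0, 37.3, 37.5, 39.1 and 40.2 CPM in Mttp_flox_CM and at 21.0, 20.9, 22.5, 21.7 and 23.3 CPM in Mttp_KO_CM, a fall by 0.81 (SE 0.050, edgeR adjusted p = 1.6e-12). Dcn (decorin) was at 26.7, 26.6, 28.3, 26.9 and 28.0 CPM against 19.2, 20.6, 21.9, 21.5 and 18.6 CPM and fell by 0.42 (SE 0.057, edgeR adjusted p = 2.0e-06). Neither gene overlapped between groups, and each varied little within a group. Prelp, a proteoglycan with an arginine- and proline-rich end (ENSMUSG00000041577, chromosome 1 from 133838042 to 133849152, minus strand, GRCm39), was at 6.77, 9.77, 9.80, 9.81 and 10.6 CPM against 3.15, 3.23, 3.37, 2.48 and 3.92 CPM. Its lowest Mttp_flox_CM library, replicate 1, still lay above all 5 Mttp_KO_CM libraries, and it fell by 1.54 (SE 0.14, edgeR adjusted p = 2.5e-09). Lum (lumican) had 16, 33, 22, 15 and 37 counts against 10, 3, 12, 10 and 5 and fell by 1.61 (SE 0.34, edgeR adjusted p = 4.7e-04), to 0.514 ± 0.218 CPM.

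Postn, the periostin gene of myofibroblasts, was at 16.3, 10.4, 13.6, 12.6 and 13.7 CPM in Mttp_flox_CM and at 8.67, 7.09, 9.58, 8.15 and 8.78 CPM in Mttp_KO_CM. The groups did not overlap, and Postn fell by 0.65 (SE 0.11, edgeR adjusted p = 3.2e-05). Reln, which encodes reelin and marks stellate cells in rodent liver, was at 8.02, 8.50, 7.94, 11.7 and 9.54 CPM against 6.64, 7.79, 8.64, 9.24 and 8.56 CPM. These values overlap for most libraries, and the log2 change of -0.16 (SE 0.12, edgeR adjusted p = 0.31) did not pass. Loxl1 and Fbln5, the genes of elastic fibres among those followed here, had low levels. Loxl1, which cross-links elastin, ranged from 1.54 to 2.48 and from 1.25 to 1.89 CPM (log2 change of -0.50 with SE 0.21, edgeR adjusted p = 0.062), and it passed without Mttp_flox_CM replicate 1 (adjusted p = 0.030) or Mttp_KO_CM replicate 2 (0.041). Fbln5, a fibulin of elastic fibres, ranged from 0.558 to 1.61 and from 0.414 to 0.999 CPM and fell by 0.86 (SE 0.31, edgeR adjusted p = 0.031). That call was lost in 8 of the 18 alternative fits that tested Fbln5. Leaving out any of 6 libraries lost it, Mttp_flox_CM replicates 1, 2, 4 or the unnumbered one and Mttp_KO_CM replicates 3 or 4. In these the edgeR adjusted p ran from 0.056 to 0.095.

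**Figure D3:**
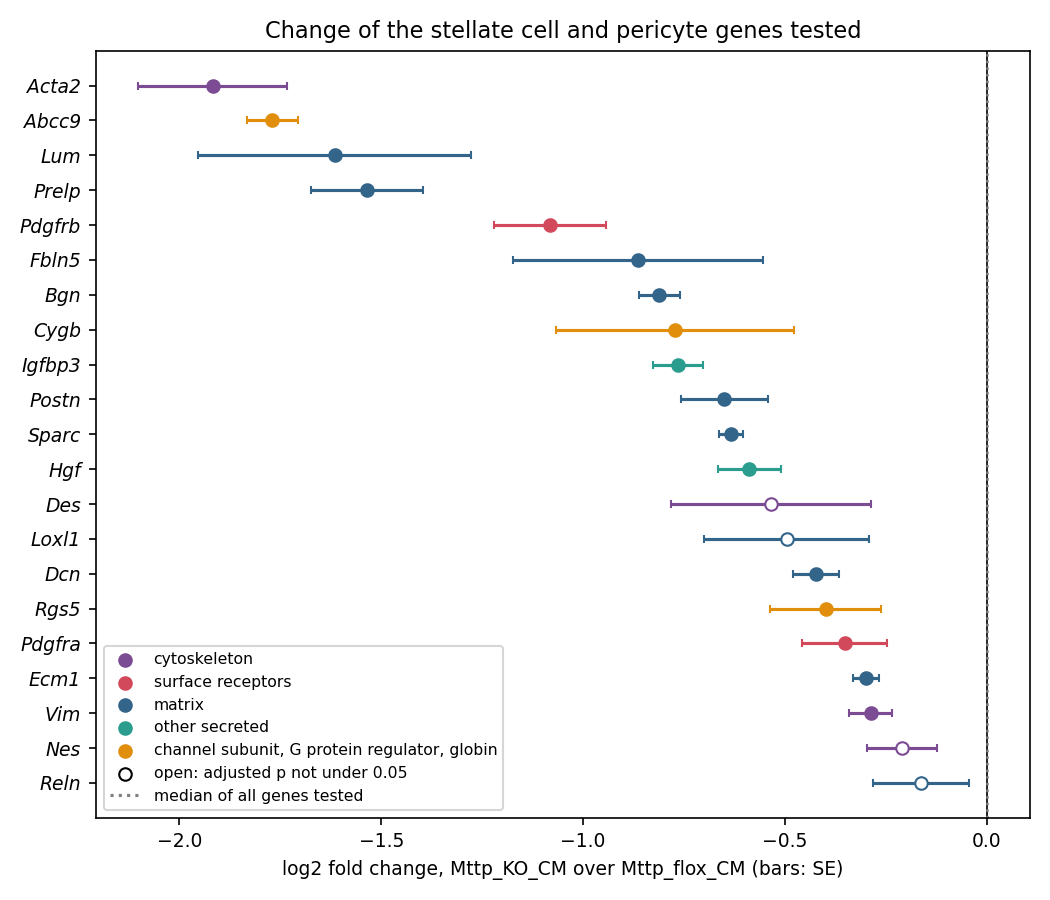
Log2 fold change, Mttp_KO_CM over Mttp_flox_CM, of the 21 genes tested (horizontal axis, bars give the SE), coloured by role, with open symbols where the adjusted p was not under 0.05 and a dotted line at the median of all genes tested, which lies on 0. Acta2, Abcc9, Lum and Prelp lie beyond -1.5, while Reln, Nes, Vim and Ecm1 lie nearest 0.

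Of the other secreted factors, Hgf and Igfbp3 both fell. Hgf, the hepatocyte growth factor that stellate cells supply to hepatocytes, was at 18.6, 18.5, 18.1, 19.8 and 22.0 CPM in Mttp_flox_CM and at 12.0, 12.6, 14.4, 11.5 and 13.98 CPM in Mttp_KO_CM. It fell by 0.59 (SE 0.079, edgeR adjusted p = 1.7e-06), with no overlap. Igfbp3, a carrier of insulin-like growth factors made by non-parenchymal liver cells, was at 101, 97.4, 104, 103 and 96.2 CPM against 51.8, 54.2, 71.2, 63.1 and 53.8 CPM. It fell by 0.77 (SE 0.062, edgeR adjusted p = 3.0e-10), and its Mttp_KO_CM libraries were more spread than those of Mttp_flox_CM, with replicate 3 the highest. Colec11, a collectin of the lectin complement pathway, had 21 counts against 12, a ratio of 0.572 (0.257 to 1.22).

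Genes that act on HGF outside the cell moved in both directions. Of 8 tested among its receptor, activators and inhibitors, 3 fell and 2 rose, with a median of -0.03. Plat, the tissue plasminogen activator, rose from 138 to 381 CPM (log2 change of 1.46 with SE 0.047, edgeR adjusted p = 4.0e-18). Met, the HGF receptor of hepatocytes, rose by 0.15 (SE 0.037), while the urokinase gene Plau fell by 0.40 (SE 0.081) and plasminogen, Plg, by 0.20 (SE 0.047).

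The regulators of membrane and G protein signalling were led by Abcc9. It encodes SUR2, the sulfonylurea receptor subunit of the potassium channel of pericytes (ENSMUSG00000030249, chromosome 6 from 142533588 to 142648041, minus strand, GRCm39), and was at 44.4, 41.4, 43.7, 43.1 and 46.8 CPM in Mttp_flox_CM and at 11.6, 14.5, 13.8, 11.3 and 13.1 CPM in Mttp_KO_CM. The highest Mttp_KO_CM library had well under the lowest level of Mttp_flox_CM. Abcc9 fell by 1.77 in log2 units (SE 0.063, edgeR adjusted p = 3.3e-17), the smallest p of the 31 genes. Kcnj8, the pore subunit that pairs with SUR2, fell from 64.7 to 32.6 CPM (log2 -0.99, SE 0.046). Rgs5, a brake on G protein signals used to mark pericytes, was at 72, 67, 84, 68 and 76 counts against 56, 45, 73, 59 and 46 counts and fell by 0.40 (SE 0.14, edgeR adjusted p = 0.025). Its groups overlapped in CPM by 1 library, and the call was lost without Mttp_flox_CM replicate 3 (adjusted p = 0.056), the unnumbered Mttp_flox_CM library (0.052), Mttp_KO_CM replicate 2 (0.063), the unnumbered Mttp_KO_CM library (0.056) or both unnumbered libraries (0.11). Cygb, the globin of stellate cells, ranged from 0.907 to 2.48 and from 0.510 to 1.26 CPM and fell by 0.77 (SE 0.29, edgeR adjusted p = 0.043). Its call did not hold in 12 of the 19 alternative fits. It was lost without Mttp_flox_CM replicates 2, 3 or 4 or Mttp_KO_CM replicates 1, 3 or 4. Leaving out the unnumbered Mttp_KO_CM library or both unnumbered libraries also lost it. In these the edgeR adjusted p ran from 0.053 to 0.21, and DESeq2 gave an adjusted p of 0.055.

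None of the 3 transcription factors had enough counts to be tested. Hand2, a factor of cardiac and liver mesenchyme, had 7, 16, 9, 14 and 24 counts in Mttp_flox_CM and 7, 2, 7, 5 and 2 in Mttp_KO_CM, a ratio of 0.329 (0.196 to 0.534). In CPM its groups just failed to overlap, with 0.488 the lowest of Mttp_flox_CM and 0.460 the highest of Mttp_KO_CM, and with no filter its adjusted p was 0.0015 by edgeR. Hand2os1 lies on the opposite strand across Hand2 and had 68 counts against the 93 of Hand2, so their reads were not separated here. Lhx2, which holds stellate cells quiescent, had 43 counts against 29, and Tcf21, a factor of fibroblast precursors, 32 against 23. Their ratios of 0.675 (0.407 to 1.11) and 0.720 (0.402 to 1.27) were within counting error of 1. Among 12 other mesenchymal transcription factors tested 7 fell and 1 rose (median -0.24). Twist1, a factor of mesenchymal identity, fell from 27.3 to 10.8 CPM (log2 -1.34, SE 0.071), Tcf4 by 0.37 (SE 0.040) and Ets1 by 0.31 (SE 0.033), whereas Ets2 rose by 0.41 (SE 0.029). Without Mttp_flox_CM replicate 4, 2 of these 12 rose.

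Some genes that share a role fell by unequal amounts, while most pairs within a role did not pass the test of a difference. For each of 56 pairs of tested genes within a role, the log2 ratio of their counts (0.5 added to each) was compared between groups by a two-sided exact permutation test over the 10 libraries, whose smallest p is 0.00794, with Benjamini-Hochberg adjustment over the 56. The ratio changed in 20 pairs and did not pass in 36. No such count was made for pairs of other genes, so the count only describes these pairs. The 20 include Dcn to Lum and Lum to Ecm1, and Lum passed the filter through its Mttp_flox_CM libraries. The log2 ratio of Acta2 to Des fell by 1.36, that to Vim fell by 1.62 and that to Nes fell by 1.69 (exact permutation adjusted p = 0.0278 each). The ratio of Pdgfra to Pdgfrb rose by 0.74, from 0.89 ± 0.294 to 1.63 ± 0.308, that of Dcn to Bgn by 0.38 and that of Dcn to Prelp by 1.09, each with the same adjusted p in the exact permutation test. The ratio of Abcc9 to Rgs5 fell by 1.37, from 3.18 ± 0.105 to 1.81 ± 0.259. The groups did not overlap in any of the ratios just named. Hgf and Igfbp3 were not told apart, with a change of 0.19 in their ratio (exact permutation p = 0.111). The number of pairs passing was 13 without the unnumbered Mttp_flox_CM library and 10, 12 and 13 without Mttp_KO_CM replicate 2, 3 or 4. It was 0 without both unnumbered libraries, where the smallest p of the exact permutation test is 0.0286. Such a p passes the adjustment only if many of the 56 pairs share it, so this 0 says little. The comparison of pairs was added after the values were seen.

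Other mesenchymal genes of liver were lower as well. Of 31 tested, 23 fell and 3 rose, with a median of -0.59. Timp3, an inhibitor of metalloproteinases, fell from 56.6 to 21.8 CPM (log2 -1.38, SE 0.051), and Loxl2, a collagen cross-linking enzyme, from 55.3 to 30.1 CPM (log2 -0.87, SE 0.065). Ednrb, the endothelin B receptor that stellate and endothelial cells share, went the other way, from 33.0 to 57.0 CPM (log2 change of 0.79 with SE 0.045, edgeR adjusted p = 4.3e-13). The other 2 that rose, named after their values were seen, were Steap4 (log2 0.26) and Angptl6 (log2 1.06). Bmp10 and Gdf2, BMP ligands that stellate cells send to endothelium, also named after their values were seen, fell by 1.61 (SE 0.20) and 1.04 (SE 0.16). All 5 collagen and retinoid markers of stellate cells fell (median -1.13), with Col1a1 down by 1.36 and Col3a1 by 1.07.

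The wider set of contractile genes moved in both directions. Of 12 tested, 6 fell and 3 rose, with a median of -0.09, and their summed level was 2414 ± 48.3 and 2408 ± 34.6 CPM. Calponin 2 (Cnn2) fell by 0.47, smoothelin (Smtn) by 0.40 and filamin A (Flna) by 0.18, while alpha-actinin 1 (Actn1) rose by 0.32. Genes typical of smooth muscle were barely detected, and Actg2, Cnn1, Lmod1, Myh11 and Myocd had at most 12 counts in any library. They added almost nothing to the summed level, which therefore says little about smooth muscle cells.

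**Figure D4:**
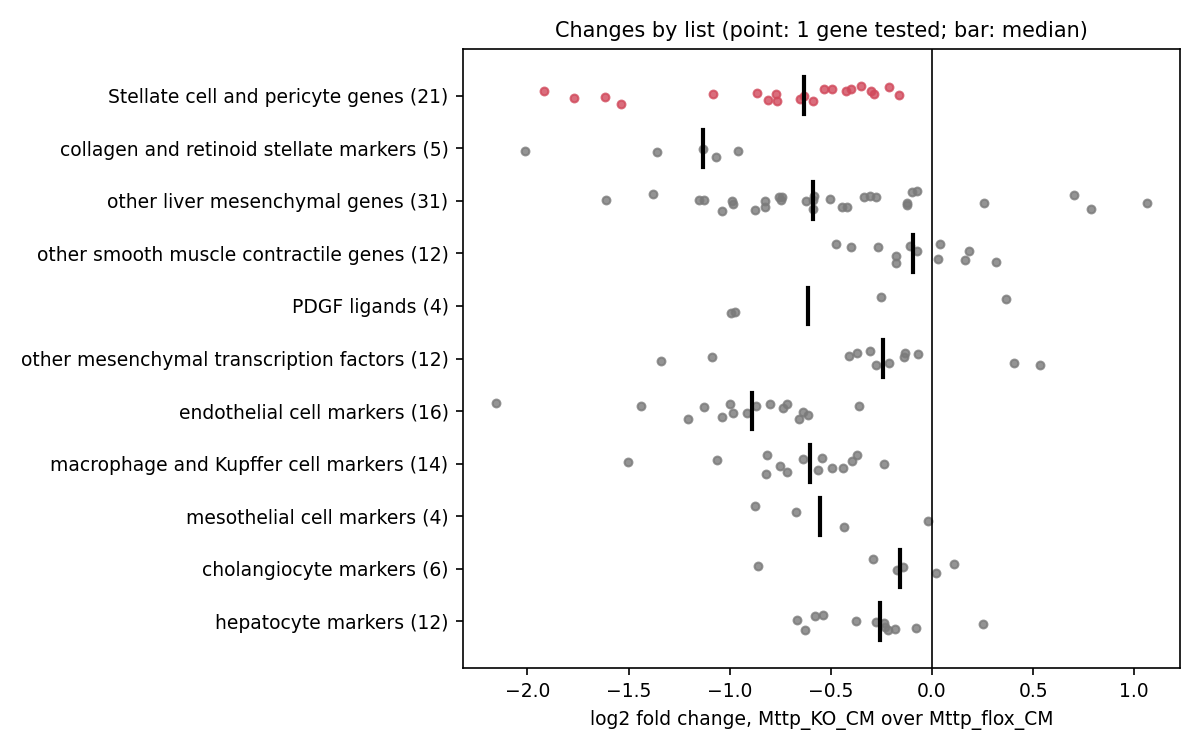
Log2 fold changes, Mttp_KO_CM over Mttp_flox_CM (horizontal axis), of every gene tested on each list, with 1 point per gene, a bar at the list's median and the number of genes in brackets. The stellate cell and pericyte genes have a median of -0.63, the endothelial markers -0.89, the macrophage markers -0.60, the hepatocyte markers -0.26 and the wider contractile genes -0.09.

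Markers of other non-parenchymal cells moved the same way, and their part in the result was not tested. All 16 endothelial markers fell (median -0.89), and their summed level ran from 2612 to 2795 CPM in Mttp_flox_CM and from 1505 to 1591 CPM in Mttp_KO_CM, with Eng down by 1.12, Kdr by 1.44 and Fcgr2b by 1.21. All 14 macrophage markers fell (median -0.60), from between 823 and 916 to between 532 and 604 CPM, with Cd163 down by 1.06 and C1qa and Vsig4 each by 0.82. Sparc and Vim are also expressed by these cells. Of 12 hepatocyte markers 11 fell and 1, Cyp2e1, rose (median -0.26), from between 61170 and 64330 to between 49420 and 51940 CPM, with Ahsg down by 0.63, Apoa1 by 0.54 and Serpina1a by 0.67. Mesothelial markers, which overlap with mesenchyme, summed to between 5.77 and 8.38 CPM in Mttp_flox_CM and to between 3.86 and 5.35 CPM in Mttp_KO_CM. Of 4 tested 2 fell, Msln by 0.67 and Gpm6a by 0.87 (median -0.56). Without Mttp_flox_CM replicate 1 the number was 1. Of 6 cholangiocyte markers tested 2 fell, Spp1 by 0.86 and Sox9 by 0.29 (median -0.16), and their sum ran from 546 to 601 and from 305 to 371 CPM, almost all of it Spp1. Adipocyte-defining genes were at or near 0, with no count for Lep and Cfd and at most 2 counts of Adipoq in any library. Plin1, too low to be tested, had 9 counts in all in Mttp_flox_CM and 31 in Mttp_KO_CM. Of the 2 adipocyte genes tested Pparg fell by 0.72 and Fabp4 rose by 0.13, the latter a call lost without Mttp_flox_CM replicate 3 or Mttp_KO_CM replicates 2 or 4, which left 0 higher.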

How the data were processed

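The authors deposited raw counts per gene, whole numbers with 1 column per library. They also deposited FPKM values. The submitters' processing notes name HISAT2 (2.0.5), featureCounts (1.5.0-p3) and the mouse build GRCm39. How strand and reads matching several genes were handled, and how FPKM was scaled, is not given in the sources used here. Column names matched the labels for 8 libraries. The other 2, 1 per group, carried a number no label gives and were placed by their letter.

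Counts were tested in R 4.3.3 with edgeR 4.0.16 (filterByExpr at its defaults, minimum count 10 and total 15, then TMM, glmQLFit, glmQLFTest, Benjamini-Hochberg). The filter left 14183 of 56748 genes and 99.8% of counts. FPKM served to compare levels between genes. Replicates differed beyond counting noise (chi-square per degree of freedom from 2.04 to 4.11). DESeq2 1.42.0 and limma 3.58.1 served as alternatives. The members and lists were chosen with earlier results of these data known. All 31 members are named, with up to 4 genes of each further list and up to 3 of each marker list by smallest p. 1 gene that this rule picks is not reported here. The transferrin gene was matched as Trf.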

Additional observations from a re-analysis of the deposited data

Results flagged for a closer look

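Levels were searched for a library standing apart from the other 4 of its group, by Dixon's criterion (gap over range above 0.71). Of 88 sets of 5 checked, 9 were picked out, and chance picks out about 1 in 20. In Mttp_KO_CM, replicate 1 had the highest Acta2, at 1.71 CPM where the others averaged 1.12. Replicate 4 held all 4 Gfap counts of that group and had the fewest Lhx2 counts, 3 where the others averaged 6.5. In Mttp_flox_CM, replicate 1 had the lowest Prelp, at 6.77 CPM where the others averaged 9.99. Replicate 3 had the lowest Fbln5, at 0.558 CPM where the others averaged 1.50, and the highest sum over other mesenchymal genes, 1327 CPM where the others averaged 1282. Replicate 4 had the most counts of Ngfr, 12 where the others averaged 3, and of Colec11, 10 where the others averaged 2.75. It also had the highest sum over other mesenchymal transcription factors, 804.5 CPM where the others averaged 769.9. The causes were not tested.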

How the results depend on the processing

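The 19 alternatives covered scaling, filtering, FPKM values, a replicate block and left-out libraries. The number of stellate cell and pericyte genes that fell was 15 to 19 under all of them, beside 17, and 0 rose under each. Of the 21 tested, 15 kept their call or lack of one wherever tested, and Des, Nes, Loxl1, Fbln5, Rgs5 and Cygb did not. No change turned direction. Among all genes called, 50.1% were higher with TMM and 38.1% with library size alone. On log2 of FPKM plus 1, which shrinks the change of low genes, the medians were -0.34 for the stellate cell and pericyte genes, -0.25 for PDGF ligands, -0.25 for other mesenchymal genes, -0.14 for transcription factors, -0.75 for endothelial, -0.17 for mesothelial and -0.61 for collagen and retinoid markers, and 0 adipocyte genes rose. With 0.1 added they were -0.56, -0.53 for PDGF ligands and -0.83 for endothelial markers. With library size alone the medians were -0.13 for contractile genes and -0.93 for endothelial markers, and 0 adipocyte genes rose. With no filter 1 mesothelial gene fell, 2 adipocyte genes rose and the adipocyte median was 0.064. Without both unnumbered libraries the endothelial median was -0.87, 1 mesothelial gene fell and 0 of 56 pairs passed. The smallest p of the exact permutation test was then 0.0286, which passes the adjustment only if many pairs share it. Leaving out 1 library gave 15 to 17 genes that fell, 10 to 27 pairs, 0 to 1 PDGF ligands higher, 1 to 2 transcription factors higher, endothelial medians of -0.90 to -0.88, 1 to 2 mesothelial genes lower and 0 to 1 adipocyte genes higher. The causes of these shifts were not tested.

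There was little sign that replicate numbers pair the libraries, though weak correlations cannot exclude pairing. Deviations of same-numbered libraries correlated at 0.005, -0.008, 0.017 and 0.144, and only number 4 correlated best with its own number. With a replicate block over the 4 shared numbers 16 of the genes fell, the median was -0.64, the endothelial median -0.87 and 1 mesothelial gene fell. The block took the calls of Rgs5 (adjusted p = 0.11) and Cygb (0.079) and gave one to Nes (0.040). Counts under 10 per library limit Lum, Fbln5, Cygb and the 10 untested genes.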
